A study of Mus musculus with 6 samples.

Results

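Keratins are the intermediate filament proteins of epithelial cells. Each keratin filament is built from a type I (acidic) chain paired with a type II (basic) chain, so the chains of both types are made together. In the simple epithelium of the intestine, Krt8 is the main type II keratin, and it pairs with the type I keratins Krt18, Krt19 and Krt20. Krt20 marks differentiated cells of the villus and surface, whereas Krt19 and the Krt8 and Krt18 pair also occur in the crypt. Here the mRNA levels of 6 intestinal keratins are described, namely the type II genes Krt7 and Krt8 and the type I genes Krt18, Krt19, Krt20 and Krt23. They were taken by gene name from the 28752 genes of the deposited table, in which 29 keratin genes were listed in all.

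The samples were mouse intestinal crypt stem cells under hypoxia/reoxygenation (H/R), a cell model of ischemia and reperfusion. The paper's methods took Lgr5+ intestinal stem cells from Lgr5-GFP mice, which report the stem cell gene Lgr5, and grew them as crypt-villus organoids. The paper calls the sequenced cells intestinal crypt cells and does not say whether they were sorted by Lgr5. The labels give the genotype as WT for all samples, and an adenovirus infection of 72 h before an H/R challenge with 4 h of hypoxia at 2% O2. The vector group (n = 3) was compared with the group overexpressing the circular RNA circEZH2_005 (n = 3), and cells outside H/R were not analysed here. The labels do not say whether the 3 samples of a group came from separate cultures or animals, so the p-values measure only the spread between these samples, which may be technical. The libraries were made from polyadenylated RNA and the table lists genes, so no level of circEZH2_005 was obtained.

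Krt8 and Krt20 rose in the circEZH2_005 samples, and the other 4 keratins did not pass the test in either direction. Krt20 rose 2.26-fold (95% confidence interval 1.74 to 2.95) and Krt8 rose 1.49-fold (1.27 to 1.73). These folds come from counts scaled between libraries, and the ratios of mean FPKM as deposited were 2.12 for Krt20 and 1.40 for Krt8. Thus 2 of 6 keratins had an adjusted p-value under 0.05 with a higher level (edgeR's quasi-likelihood test, Benjamini-Hochberg adjustment over all 18348 genes tested), where 493 of all genes tested (2.69%) did. None fell, a count of 0 of 6, where 181 of all genes tested (0.986%) were lower. At an unadjusted p-value under 0.05, 3 keratins were higher and 0 lower, where 14.0% of all genes tested were higher and 9.72% lower. DESeq2 called 2 keratins higher and 0 lower, with 9.25% and 4.1% of its 17015 genes, and limma called 2 and 0, with 2.79% and 2.74% of its 13278 genes. Scaling to 5 epithelial genes left 1 keratin higher, and it changed the split of all genes from 493 higher and 181 lower to 205 higher and 173 lower. The keratins' median log2 fold change was 0.13, beside 0.00 over all genes tested. In bulk RNA, more cells of a type and more RNA per cell cannot be told apart.

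The 6 genes lie in the keratin clusters of chromosomes 11 and 15 (GRCm38, coordinates as deposited). The type I genes Krt20 (chr11:99428403-99438150), Krt23 (chr11:99477974-99493137) and Krt19 (chr11:100140810-100146120) lie on the minus strand of chromosome 11. The type II genes Krt7 (chr15:101411043-101430313, plus strand) and Krt8 (chr15:101996698-102004482, minus strand) lie on chromosome 15. Krt18 (chr15:102028180-102032027, plus strand) is the exception among the type I genes, and it sits head to head with Krt8 at a distance of 23697 bases. The longest coding transcripts of GENCODE M21 have 9 exons in Krt7 and Krt8, 8 in Krt20 and Krt23, 7 in Krt18 and 6 in Krt19. Krt7 overlaps the minus-strand gene Gm671, and Krt8 overlaps the plus-strand gene Gm36026. No strand setting is given for the counting, so reads of these overlapping genes cannot be told apart.

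The sequence upstream of Krt20 and Krt8, the genes that rose, and of Krt18, the neighbour and filament partner of Krt8, is shown so that it can be read beside their log2 fold changes of 1.18, 0.57 and 0.19. The sequences come from RefSeq promoter windows (GRCm38.p6), which matched 5 of the 6 keratins and not Krt19. Each is printed 5′ to 3′ on the strand of its gene and ends before the first annotated base of the gene. Capitals mark 3 motifs on either strand, namely the TATA box TATAAA, the AP-1 site TGANTCA and the CACCC box bound by Kruppel-like factors. The windows are chr11:99438154-99438403 (minus strand, 250 bases) for Krt20, chr15:102004483-102004592 (minus strand, 110 bases) for Krt8 and chr15:102027966-102028179 (plus strand, 214 bases) for Krt18.
Krt20: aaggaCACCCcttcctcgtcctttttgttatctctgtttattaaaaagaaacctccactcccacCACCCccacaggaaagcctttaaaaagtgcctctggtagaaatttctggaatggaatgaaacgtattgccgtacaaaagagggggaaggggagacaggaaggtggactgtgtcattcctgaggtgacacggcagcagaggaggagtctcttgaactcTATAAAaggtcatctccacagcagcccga
Krt8: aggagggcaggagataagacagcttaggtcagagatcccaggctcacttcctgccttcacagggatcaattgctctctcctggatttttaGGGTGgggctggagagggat
Krt18: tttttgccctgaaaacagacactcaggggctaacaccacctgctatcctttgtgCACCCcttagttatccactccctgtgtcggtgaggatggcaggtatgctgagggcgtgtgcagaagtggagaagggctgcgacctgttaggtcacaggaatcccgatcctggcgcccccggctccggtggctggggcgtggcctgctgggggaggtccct

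In the 250 bases before the RefSeq start, Krt20 was the keratin of the 5 with a TATAAA match, which began at base -29. This motif occurs in 12.4% of 32851 windows of the same length. The CACCC box was matched at -245 and -186 in Krt20, at -160 and -137 in Krt8, at -196 in Krt18 and at -202 in Krt7, and not in Krt23, and 52.0% of all windows hold it. The Krt8 match at -137 lies inside the annotated gene and is not printed. The AP-1 letters were found in 0 of the 5 keratin windows and in 6.75% of all windows. Letters of other motifs were searched too and are not marked by capitals. The ETS core GGAAG was matched in Krt7, Krt8 and Krt20 (64.1% of all windows). The CDX-like TTTATNG was matched in Krt20 at -30, over the TATA box (9.81% of all windows). The E-box CACGTG was matched in Krt23 at -169 (6.02% of all windows). The window of Krt20 held 48.0% G and C, against 58.0% for Krt8 and 60.4% for Krt18. A match describes letters only, and binding was not measured.

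Levels are given in FPKM (fragments per kilobase of transcript, scaled for sequencing depth), the unit the authors computed, which can be compared between genes. Krt20, the type I keratin of differentiated intestinal cells, was at 367, 382 and 370.1 FPKM in vector samples 1 to 3. In circEZH2_005 samples 1 to 3 it was at 698, 973 and 700.0 FPKM. The groups did not overlap, and circEZH2_005 sample 2 stood above the other samples. The mean rose from 373 ± 8.14 to 790.2 ± 158 FPKM (SD, n = 3 each), and the counts behind these values ran from 56204 to 167261. The log2 fold change was 1.18 (standard error 0.165, 95% confidence interval 0.80 to 1.56, adjusted p = 0.0207 from edgeR), rank 108 of all genes tested by p-value. The two-sided exact permutation test of log2 CPM (counts scaled to library size) gave p = 0.1, the smallest value that 3 against 3 samples allow. The call was lost without vector sample 1 (edgeR, adjusted p = 0.106) and without vector sample 3 (adjusted p = 0.111), where the log2 fold changes were 1.18 and 1.17.

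Krt8, the main type II partner in these filaments, was at 969.7, 995 and 992 FPKM in the vector samples. It was at 1412, 1447 and 1269.8 FPKM in the circEZH2_005 samples. The lowest circEZH2_005 sample was thus above the highest vector sample, and Krt8 was the 33rd most highly expressed gene of the table by mean FPKM. The mean rose from 986 ± 13.9 to 1376 ± 93.8 FPKM (SD, n = 3 each), with a log2 fold change of 0.57 (standard error 0.095, interval 0.35 to 0.79, adjusted p = 0.0301 from edgeR). The exact permutation test again gave its smallest value, p = 0.1. The log2 fold change was 0.42 with scaling to the epithelial genes (edgeR, adjusted p = 0.053) and 0.57 without a filter on low counts (adjusted p = 0.0594). The call was also lost without vector sample 1 (edgeR, adjusted p = 0.143), vector sample 3 (0.153), circEZH2_005 sample 2 (0.0625) or circEZH2_005 sample 3 (0.0612).

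The spread among the samples of a group was not alike for the 6 keratins. The coefficient of variation of Krt8 in CPM was 0.346% among the vector samples and 8.37% among the circEZH2_005 samples. For Krt20 it was 1.11% and 24.3%. It went the other way for Krt7 (14.5% and 2.01%), Krt18 (5.37% and 2.98%) and Krt19 (6.15% and 3.72%), and it was 11.3% and 12.01% for Krt23. These differences in spread were not tested.

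**Figure D1:**
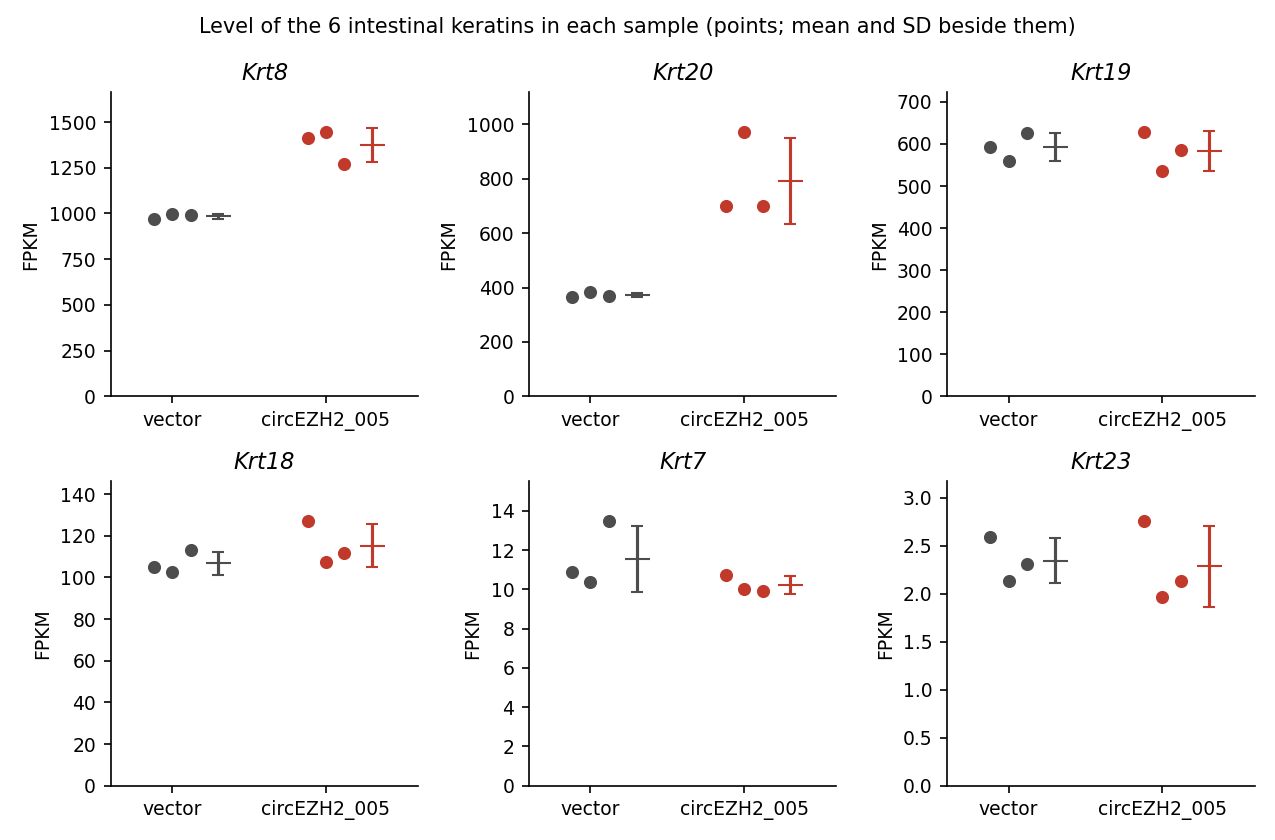
Level of each of the 6 keratins (FPKM, linear axis from 0) in the 3 vector samples (grey) and the 3 circEZH2_005 samples (red), with each group's mean and SD drawn beside its points. Krt8 and Krt20 separate the groups, whereas the points of Krt19, Krt18, Krt7 and Krt23 overlap between them.

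Krt18, the classical type I partner of Krt8, was at 105, 103 and 113 FPKM in the vector samples and at 127, 107 and 112 FPKM in the circEZH2_005 samples. These values overlapped between the groups. In CPM, which here includes the scaling between libraries, the vector samples were at 165, 157 and 175 and the circEZH2_005 samples at 196, 185 and 189, without overlap. With Krt18, 3 of the 6 keratins had every circEZH2_005 sample above every vector sample in CPM, as did 3002 of all genes tested (16.4%). The log2 fold change of Krt18 was 0.19 (standard error 0.079, interval 0.011 to 0.38), which did not pass the adjusted threshold (edgeR's quasi-likelihood test, adjusted p = 0.187, unadjusted p = 0.0402, exact permutation p = 0.1). It was 0.055 when scaled to the epithelial genes.

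Krt19, a type I keratin of crypt and villus cells, was at 593, 561 and 626 FPKM in the vector samples and at 629, 536 and 586 FPKM in the circEZH2_005 samples. The groups overlapped, and the log2 fold change was 0.061 (interval -0.15 to 0.27, adjusted p = 0.735 from edgeR). Krt7, a type II keratin more typical of ducts than of the gut lining, was at 10.9, 10.4 and 13.5 FPKM with the vector. It was at 10.7, 9.99 and 9.91 FPKM with circEZH2_005 (log2 fold change -0.092, interval -0.35 to 0.16, adjusted p = 0.666 from edgeR). Vector sample 3 was the highest for Krt7, and the remaining 5 samples lay close together. Krt23, a type I keratin of low abundance, was at 2.60, 2.13 and 2.31 FPKM with the vector and at 2.76, 1.97 and 2.13 FPKM with circEZH2_005 (log2 fold change 0.039, interval -0.39 to 0.47, adjusted p = 0.925 from edgeR). The exact permutation p-values were 0.5 for Krt19, 0.8 for Krt7 and 0.7 for Krt23. For these 3 genes and for Krt18, the interval leaves out a change of 1 on the log2 scale in either direction, and smaller changes remain within it. The sign of the Krt19 and Krt23 estimates turned with scaling to the epithelial genes, where they were -0.078 and -0.092. The Krt7 estimate turned to 0.026 without vector sample 3, and the Krt23 estimate turned to -0.032 without vector sample 2 and to -0.063 without circEZH2_005 sample 1.

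**Figure D2:**
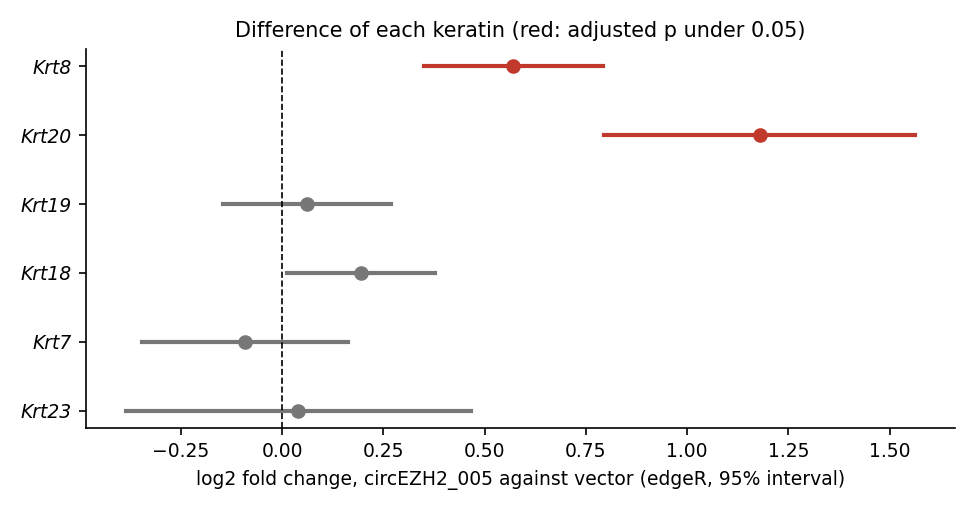
Log2 fold change of each keratin between circEZH2_005 and vector (points) with its 95% confidence interval (lines), from the edgeR fit, with 0 marked by a dashed line. The intervals of Krt8 (0.35 to 0.79) and Krt20 (0.80 to 1.56) are drawn in red because their adjusted p-values were under 0.05.

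The order of the levels changed in 1 place. In the vector samples it was Krt8, Krt19, Krt20, Krt18, Krt7 and Krt23 from highest to lowest. In the circEZH2_005 samples Krt20 stood above Krt19. Neighbours in this order did not overlap within either group, since the lowest Krt20 value with circEZH2_005 was 698 FPKM and the highest Krt19 value was 629 FPKM. Levels spanned from 986 FPKM for Krt8 to 2.35 FPKM for Krt23 with the vector.

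Added over the 6 genes, keratin mRNA was at 2073 ± 38.0 FPKM in the vector samples and at 2878 ± 198 FPKM in the circEZH2_005 samples. The mean level of Krt20 rose by 417 FPKM and that of Krt8 by 391 FPKM, whereas the differences of the other 4 genes lay between -9.94 FPKM for Krt19 and 8.49 FPKM for Krt18. FPKM values lack the scaling of the edgeR fit, in which Krt19 was at 0.061 on the log2 scale. Type I mRNA went from 1076 ± 32.7 to 1491 ± 113 FPKM and type II mRNA from 997 ± 14.4 to 1386 ± 94.0 FPKM. The ratio of type I to type II was 1.08 ± 0.033 with the vector and 1.08 ± 0.046 with circEZH2_005. In single samples it was 1.09, 1.04 and 1.11 with the vector and 1.02, 1.11 and 1.09 with circEZH2_005, and the groups overlapped.

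Within the type I keratins, no gene's share overlapped between the groups, with that of Krt20 higher and those of Krt18, Krt19 and Krt23 lower with circEZH2_005. Krt20 held 34.7% ± 1.63 of type I mRNA with the vector and 52.7% ± 6.54 with circEZH2_005, while Krt19 held 55.1% ± 1.46 and 39.4% ± 5.47. Krt18 held 9.93% ± 0.21 and 7.78% ± 1.06, and Krt23 held 0.218% ± 0.022 and 0.154% ± 0.034. The share of Krt20 in type I mRNA was 34.4%, 36.5% and 33.3% in the vector samples and 47.9%, 60.1% and 50.02% in the circEZH2_005 samples, which did not overlap. Of all 6 keratins together, Krt8 held 47.6% ± 0.84 and 47.8% ± 1.05, and Krt20 held 18.01% ± 0.57 and 27.3% ± 3.84. Shares add up to a whole, so a lower share of Krt18, Krt19 or Krt23 is no measure of a lower level.

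**Figure D3:**
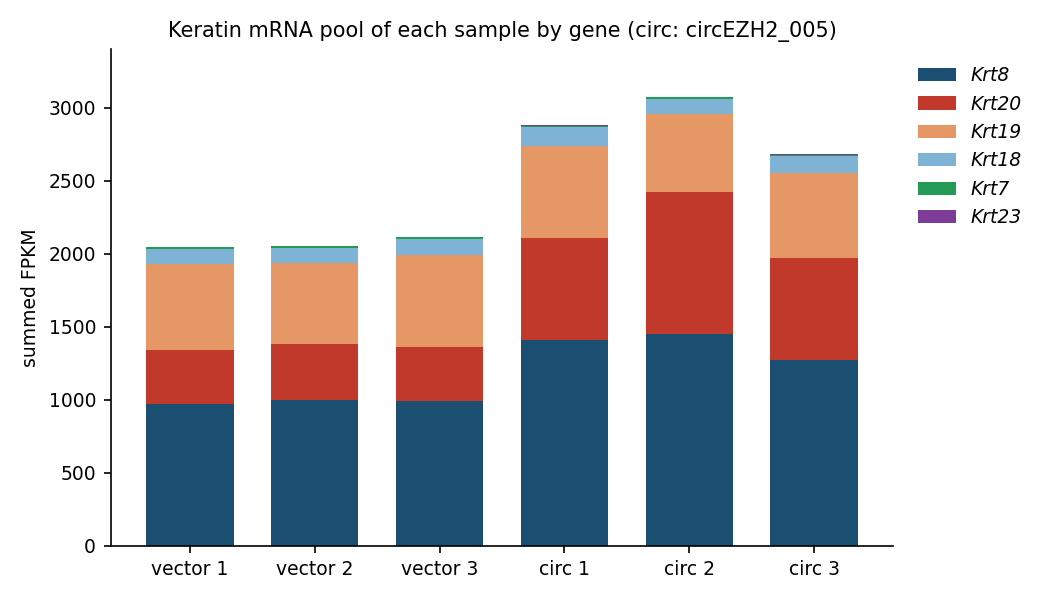
Summed FPKM of the 6 keratins in each sample, stacked by gene from 0. The bars of the circEZH2_005 samples reach from 2679 to 3074 FPKM, against 2049 to 2117 FPKM for the vector samples. The Krt8 and Krt20 segments are taller in every circEZH2_005 bar than in the vector bars.

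A ratio of keratins within a sample does not depend on how libraries are scaled to each other. Krt20 to Krt19 was 0.62, 0.68 and 0.59 in the vector samples and 1.11, 1.82 and 1.19 in the circEZH2_005 samples, a difference of 1.09 in mean log2. Krt8 to Krt18 was 9.25, 9.70 and 8.77 against 11.1, 13.5 and 11.4, a difference of 0.37. Krt20 to Krt8 was 0.379, 0.384 and 0.373 against 0.494, 0.672 and 0.551, a difference of 0.58. The groups overlapped in none of these ratios, nor in Krt20 to Krt18, Krt8 to Krt19, Krt20 to Krt23 and Krt8 to Krt7, whose log2 differences were 0.96, 0.51, 1.11 and 0.65. All 7 ratios had an exact permutation p of 0.1, the smallest possible with 3 against 3 samples, and a Benjamini-Hochberg adjusted value of 0.1. They share genes, and they were chosen with the values of Krt8 and Krt20 known.

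**Figure D4:**
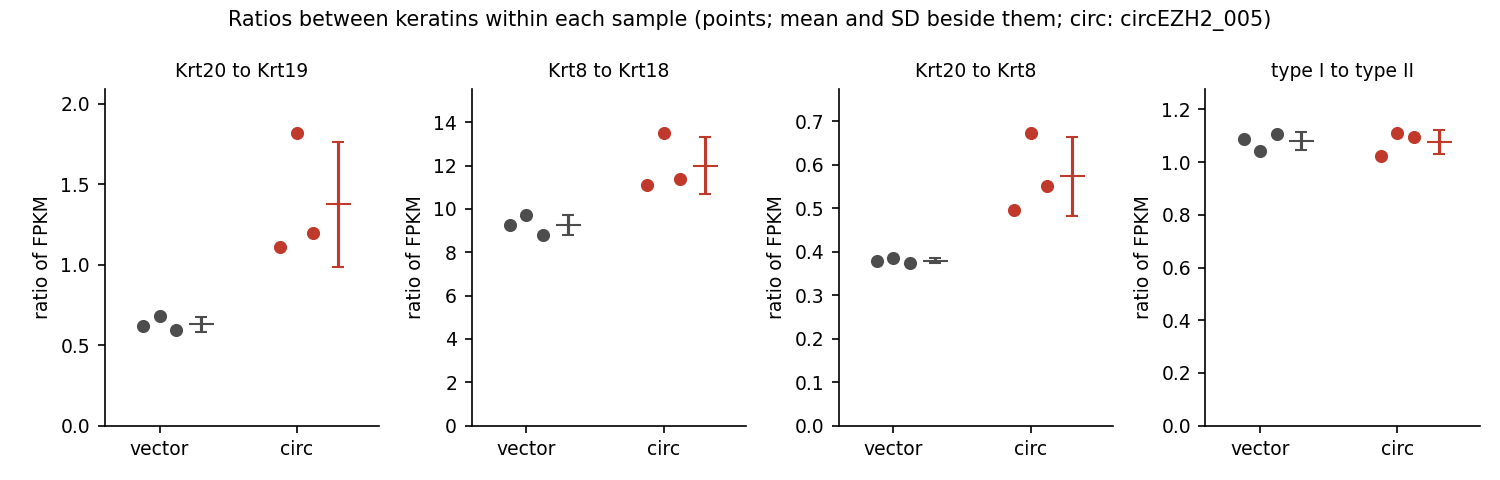
Ratios of FPKM between keratins within each sample (linear axes from 0), with the mean and SD of each group beside its points. The ratios of Krt20 to Krt19, Krt8 to Krt18 and Krt20 to Krt8 were higher in every circEZH2_005 sample, and the ratio of type I to type II keratins overlapped between the groups near 1.08.

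Of the other 23 keratin genes listed, each had a mean under 1 FPKM, and their summed level was 2.07 to 3.00 FPKM in the vector samples and 2.16 to 3.07 FPKM in the circEZH2_005 samples. Only 8 of them had enough counts to be tested, and edgeR called 0. At an unadjusted p-value under 0.05, 2 were higher and 0 lower (14.0% and 9.72% of all genes tested). DESeq2 called 1 higher and 0 lower (9.25% and 4.1% of its genes), and limma called 0. Krt12, the gene 6143 bases from Krt20 in the cluster and known as the keratin of the cornea, had 25, 23 and 53 counts with the vector and 185, 169 and 56 counts with circEZH2_005. Its groups did not overlap in CPM, though circEZH2_005 sample 3 was next to vector sample 3 (log2 fold change 2.01, standard error 0.52, adjusted p = 0.0705 from edgeR and 0.0034 from DESeq2). Krt10 and Krt15, keratins of stratified epithelium, had log2 fold changes of -0.45 and -0.51, and Krt78 had 1.56, none past the threshold. Krt87 had -0.28 and Krt222 had 0.67, also short of it. Krt14, the basal keratin of the skin, had at most 20 counts in a sample, Krt32 had at most 15, and neither was tested.

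Krt8-ps, a processed copy of Krt8 listed at chr7:23357125-23358069, had 380, 372 and 416 counts with the vector and 560, 688 and 618 counts with circEZH2_005. Its groups did not overlap (log2 fold change 0.68, standard error 0.16, adjusted p = 0.0575 from edgeR). DESeq2 gave an adjusted p of 0.00441 and limma 0.0296, so its call depends on the tool. Reads may be split between near-identical copies, so values of this copy are uncertain. Its counts were 0.237% to 0.294% of those of Krt8 in the same sample.

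Proteins that anchor keratin filaments at desmosomes or bind them were described as a list of 16, all tested. Of these, 1 was higher and 1 lower by edgeR, where 2.69% and 0.986% of all genes tested were. The median log2 fold change was 0.18, and 10 of 16 were above 0, as were 9174 of all 18348 genes tested. Their summed level was 367.7 to 392.4 FPKM with the vector and 404 to 428 FPKM with circEZH2_005. Pkp3, a desmosomal plakophilin, rose from 17.7 ± 0.59 to 23.8 ± 1.63 FPKM (log2 fold change 0.52, adjusted p = 0.0332 from edgeR). Ppl, which encodes the plakin periplakin, fell from 2.89 ± 0.52 to 1.54 ± 0.018 FPKM (log2 fold change -0.82, adjusted p = 0.0342 from edgeR). Among 6 genes of other intermediate filaments, 5 were tested and 1 was higher, with a median log2 fold change of 0.55. This was Lmna, the gene of the nuclear lamins A and C, which rose from 13.0 ± 0.35 to 17.9 ± 1.88 FPKM (log2 fold change 0.55, adjusted p = 0.0221 from edgeR). DESeq2 called 3 linkers higher and 1 lower (9.25% and 4.1% of its genes), and limma 1 and 1 (2.79% and 2.74%). Of the other filament genes, DESeq2 called 2 higher and 1 lower, and limma 1 and 1. Over 13 alternatives the calls held in 6 for Pkp3, 6 for Ppl and 8 for Lmna. When 1 of the 6 samples was left out they held in 2, 1 and 3 of 6 fits (edgeR, adjusted p from 0.0339 to 0.138, from 0.00855 to 0.129 and from 0.0177 to 0.125). All 3 calls were lost without vector sample 1, without vector sample 3 and without circEZH2_005 sample 2. Pkp3 and Ppl were lost without circEZH2_005 sample 3 too, and Ppl without circEZH2_005 sample 1. With scaling to the epithelial genes, Lmna was at 0.40 with an adjusted p of 0.0841 from edgeR, and 0 linkers were higher.

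The cell type markers were read beside Krt8 and Krt20. All 5 epithelial markers were present, and Epcam was at 557 ± 8.39 FPKM with the vector and 586 ± 24.9 FPKM with circEZH2_005 (log2 fold change 0.16, adjusted p = 0.36 from edgeR). The epithelial list held 0 calls by edgeR, DESeq2 and limma and 0 at an unadjusted p-value under 0.05. By edgeR 2.69% of all genes tested were higher and 0.986% lower, by DESeq2 9.25% and 4.1%, and by limma 2.79% and 2.74%. At the unadjusted threshold 14.0% and 9.72% were, so 0 calls among 5 genes says little about them. All 5 were above 0, as were 9174 of all 18348 genes tested, with a median log2 fold change of 0.16. These 5 genes are also those of the epithelial scaling. Crypt stem cell markers were present too, at unlike levels. Lgr5, by which the paper's methods sorted stem cells, though not stated for these libraries, was at 1.39 ± 0.28 and 0.713 ± 0.072 FPKM. Olfm4, of the same list, was at 550 ± 158 and 389 ± 92.1 FPKM. Alpi, the alkaline phosphatase of enterocytes, was at 264 ± 19.4 and 312 ± 36.0 FPKM (log2 fold change 0.34, adjusted p = 0.199 from edgeR). The libraries thus held RNA of differentiated cells beside that of stem cells.

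Of the 10 stem cell markers, 3 fell and 0 rose, from Rgmb (log2 fold change -0.58, adjusted p = 0.0284) to Lgr5 (-0.88, adjusted p = 0.0434, both from edgeR), with a list median of -0.50. Of all genes tested, edgeR called 0.986% lower and 2.69% higher. DESeq2 called 5 of the stem cell markers lower (4.1% of its genes), and limma 3 (2.74%), without Lgr5 (limma, adjusted p = 0.0572). Axin2 (0.31) and Rnf43 (0.32) were above 0 and not called by edgeR. With epithelial scaling, edgeR called 3 stem cell markers lower (173 of 18348 genes). The third marker called in the main fit was Smoc2 (log2 fold change -0.81, adjusted p = 0.0203 from edgeR). Its call held in 9 of 13 alternatives, and in 2 of 6 fits with a sample left out. Over 13 alternatives the calls held in 7 for Rgmb, 4 for Lgr5 and 7 for Apoa4, an enterocyte marker. Of the 10 enterocyte markers, 1 rose, the apolipoprotein gene Apoa4 (log2 fold change 0.91, adjusted p = 0.0279 from edgeR), and 8 were above 0, with a median of 0.72. Sis (-0.29) and Fabp1 (-0.37) were below 0 and not called by edgeR. Of all 18348 genes tested, 9174 were above 0. At an unadjusted p-value under 0.05, 7 enterocyte markers were higher and 0 lower (14.0% and 9.72% of all genes tested). DESeq2 called 6 enterocyte markers higher (9.25% of its genes). Limma (2.79%) and edgeR with epithelial scaling (205 of 18348 genes) each called 1. The enterocyte list added up to 8268, 7479 and 7082 FPKM with the vector and to 7866, 12873 and 10724 FPKM with circEZH2_005. The sum of circEZH2_005 sample 1 lay within the vector range. Sample 2 of circEZH2_005, which had the highest Krt20 level, had the highest enterocyte sum. Of that sum, Fabp2 made up 3121 FPKM, Apoa1 2705 FPKM and Apoa4 2008 FPKM. The same circEZH2_005 sample had the lowest stem cell sum, at 345 FPKM against 523 to 836 FPKM in the other samples. Most of that sum was Olfm4, at 282 FPKM in circEZH2_005 sample 2 and 732 FPKM in vector sample 2. Olfm4 overlapped between the groups and was not called (log2 fold change -0.42, adjusted p = 0.314 from edgeR). In circEZH2_005 sample 1, where Krt20 was at 698 FPKM, 6 of the 10 enterocyte markers stood above every vector sample and 3 below, and in samples 2 and 3 these numbers were 8 and 1. The calls of Rgmb, Lgr5 and Apoa4 were each lost without vector sample 1, vector sample 3, circEZH2_005 sample 2 or circEZH2_005 sample 3 (edgeR, adjusted p from 0.0556 to 0.166), and that of Lgr5 also without circEZH2_005 sample 1 (0.0714). The part of a shift between stem cells and enterocytes in the keratin values was not tested.

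The remaining marker lists are given beside the shares of all genes. Over all genes tested, edgeR called 2.69% higher and 0.986% lower. DESeq2 called 9.25% and 4.1% of its genes, and limma 2.79% and 2.74%. At an unadjusted p-value under 0.05 (edgeR), 14.0% were higher and 9.72% lower. Of 7 goblet cell markers 1 rose, Clca1 (log2 fold change 0.76, adjusted p = 0.0433 from edgeR), and Muc2 was at 0.22, with a list median of 0.14. DESeq2 called 2 goblet cell markers higher and 1 lower, and limma and edgeR with epithelial scaling called 0. The Clca1 call held in 3 of 13 alternatives, and with a sample left out it held in 1 of 6 fits, that without vector sample 2 (edgeR, adjusted p = 0.0295, against 0.0567 to 0.165 in the others). The 6 Paneth cell markers were all below 0 with a median of -0.60. EdgeR called 0 of them (DESeq2 1 lower, limma 0, 1 lower at an unadjusted p-value under 0.05). Their sums were 5334, 5123 and 9076 FPKM in vector samples 1 to 3 and 4267, 2744 and 5017 FPKM in circEZH2_005 samples 1 to 3. Vector sample 3 thus stood apart, and the other vector samples lay close to circEZH2_005 sample 3. Lyz1, the lysozyme of Paneth cells, had a log2 fold change of -0.59. Enteroendocrine and tuft cell lists had medians of 0.07 and 0.01 and 0 calls by edgeR and limma, with 1 enteroendocrine marker, and no tuft cell marker, higher by DESeq2. Chga, of endocrine secretory granules, was at 0.36 and Dclk1, of tuft cells, at -0.067. At an unadjusted p-value under 0.05, 1 enteroendocrine marker was higher and 1 lower, and 0 tuft cell markers differed. All 10 leukocyte markers were above 0 with a median of 1.298, edgeR called 0 (DESeq2 3 higher, limma 1 higher, 4 higher at an unadjusted p-value under 0.05), and their sums were 12.1 to 31.6 FPKM with the vector and 40.5 to 71.9 FPKM with circEZH2_005. Ptprc, the leukocyte marker CD45, was at 2.25 ± 1.55 and 6.85 ± 2.34 FPKM (log2 fold change 1.68, adjusted p = 0.0756 from edgeR). Of the markers of stratified epithelium, Krt5 and Trp63 were not in the table, and the other 6 were each under 1 FPKM. The 8 markers of fibroblasts and muscle and the 4 of mesothelium were each under 1 FPKM, and edgeR called 0 of them. At an unadjusted p-value under 0.05, 0 fibroblast and muscle markers differed and 1 mesothelial marker was lower, which DESeq2 called and limma did not. Col1a1, a fibroblast collagen, was at 0.102 and 0.0843 FPKM, and the mesothelial gene Msln at 0.732 and 0.160 FPKM. The part of these cell types in the keratin values was not tested.

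**Figure D5:**
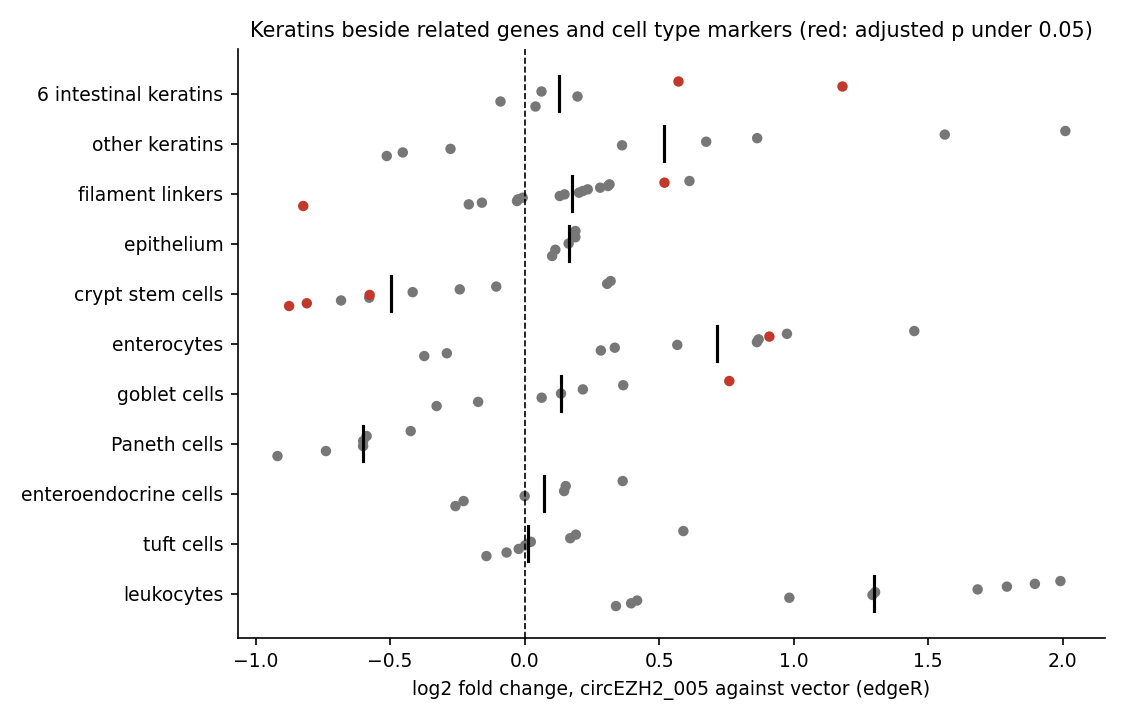
Log2 fold changes between circEZH2_005 and vector of the 6 intestinal keratins, the other keratins tested, the filament linkers and the markers of epithelium, crypt and other cells (1 point a gene, red where the adjusted p-value was under 0.05, black bars for list medians). Krt8 and Krt20 lie to the right of the keratin median of 0.13, the stem cell and Paneth cell medians are below 0, and the leukocyte median is at 1.298.

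Genes with a profile like that of a keratin over the 6 samples were found among 11596 genes whose mean level reached 1 FPKM, by the root mean square (RMS) difference between log2 CPM values centred on each gene's mean. The genes nearest to Krt20, whose own values spanned 1.55 on the log2 scale, were Gal3st2 (RMS 0.060), Dusp8 (0.065) and Slc25a22 (0.078). Those nearest to Krt8, which spanned 0.71, were Apaf1 (0.031), Pcif1 (0.039) and Ulk3 (0.044). For Krt18 they were Pi4ka, Fbxl17 and Bnip2, for Krt19 Lias, Synj2 and Carm1, for Krt7 Trim39, Llgl1 and Galnt5, and for Krt23 Sytl4, Pskh1 and Zfp740. With 6 samples in 2 groups, many genes have nearly the same profile, and the list is a description.

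The libraries held 71506487 to 79919893 counts, so that 3 counts correspond to 0.0377 to 0.0419 CPM. The correlation of log2 CPM between samples was 0.951 to 0.979. Vector sample 2 correlated with the circEZH2_005 samples at 0.965 to 0.971, which is close to its correlation with the other vector samples (0.9695 and 0.9696). Without it, the log2 fold changes of Krt20 and Krt8 were 1.19 and 0.57 (edgeR, adjusted p = 0.0157 and 0.0336).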

How the data were processed

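RNA sequencing was analysed in 6 samples of mouse intestinal crypt stem cells under H/R, 3 vector and 3 circEZH2_005, grouped by their sample titles. The authors deposited, for each of 28752 genes, a raw read count and an FPKM value in each sample. The submitters' processing notes name cutadapt 1.9, HISAT2 2.0.4, StringTie 1.3.4d, DESeq2 and the build mm10, without giving the role of each. Columns named NC were read as vector samples of the same number, since the series has no other controls. GENCODE M21 (GRCm38) held 28678 of the gene identifiers, 28527 of them with an identical start.

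Counts were filtered with filterByExpr, scaled with TMM (factors 0.9314 to 1.043) and tested in edgeR 4.0.16 (quasi-likelihood test, R 4.3.3), with Benjamini-Hochberg adjustment over the 18348 genes tested and a threshold of 0.05. Standard errors are the log2 fold change over the square root of F. CPM uses the TMM-scaled library sizes, and the FPKM values were used as deposited. Alternatives were DESeq2 1.42.0, limma 3.58.1 on log2(FPKM + 1) or log2(FPKM + 0.1) for genes averaging 0.5 FPKM or more, median-of-ratios size factors, scaling to Epcam, Cdh1, Cdh17, Esrp1 and Spint1, no filter, a replicate block, a fold change over 2, and each sample left out.

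The keratins and all lists were chosen with earlier results of these data known. Named were the 6 keratins, the 8 other keratins with the highest mean FPKM, from each list the called genes at both ends of the log2 fold changes, the first marker of each cell type, and the 3 genes nearest each keratin. Krt8-ps, Olfm4, Axin2, Rnf43, Smoc2, Sis, Fabp1, Fabp2, Apoa1 and the enterocyte sums were added after their values were seen. Data were simulated for this comparison in which 200 genes were changed by 1 on the log2 scale, some up and some down. In these, edgeR found 96 (48%) among 17686 genes, and 8.57% of its calls were unchanged genes.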

Additional observations from a re-analysis of the deposited data

How the results depend on the processing

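The rise of Krt20 kept its direction in all 13 alternatives and its call in 11 of them. The rise of Krt8 kept its direction in all 13 and its call in 6. The number of keratins higher was 1 with a fold change over 2, with scaling to the epithelial genes, without the filter and with the replicate block, 0 to 2 when single samples were left out, and 2 with the other alternatives, while 0 were lower in all. The log2 fold change of Krt8 was 0.42, 0.57 and 0.57 with epithelial scaling, no filter and the replicate block (edgeR, adjusted p = 0.053, 0.0594 and 0.0921). With 1 sample left out it ran from 0.50 to 0.61, and that of Krt20 from 0.964 to 1.303 (edgeR, adjusted p from 0.0263 to 0.153 and from 0.0123 to 0.111). Epithelial scaling moved the median of all genes by -0.14 on the log2 scale. Such scaling shifts all genes by similar amounts, so the place of Krt8 and Krt20 (1.014) above this median is no separate check. Estimates near 0 changed sign: Krt19 was at -0.078 with epithelial scaling and at -0.026 with limma at either pseudocount. Krt23 was at -0.092 with epithelial scaling, at -0.031 and -0.046 with limma at pseudocounts of 1 and 0.1, and between -0.063 and 0.127 with 1 sample left out, where Krt7 ran from -0.17 to 0.026.

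Over all genes, those higher numbered 298 with a fold change over 2, 205 with epithelial scaling, 132 without the filter, 1574 with DESeq2, 323 with limma at a pseudocount of 0.1, 241 with the replicate block and 26 to 1098 with 1 sample left out. Those lower numbered 55 with a fold change over 2, 37 without the filter, 698 with DESeq2, 364 and 319 with limma at pseudocounts of 1 and 0.1, 36 with the replicate block and 2 to 334 with 1 sample left out. The cause was not tested. The ratio of type I to type II keratins was 0.983 with the vector and 1.00 with circEZH2_005 when counts were used without length scaling.

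Samples share replicate numbers in the labels, but same-numbered samples did not deviate together (correlations of -0.136, -0.0234 and 0.0363), so the replicate block is an alternative only. The effect of depth was not tested, and of the keratins Krt23 rests on the fewest counts, 267 to 369 in a sample.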
